A study of Mus musculus with 20 samples.

Results

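The 10 genes described here encode regulators of chromatin and of DNA methylation. They were listed by name, and all 10 were found among the 16047 genes of the deposited count matrix. Ezh2, Eed and Suz12 are the core of the polycomb repressive complex PRC2, Dnmt1, Uhrf1 and Dnmt3a act in DNA methylation, Kdm1a and Kmt2d act on methylated histones, and Hdac1 and Hdac7 are histone deacetylases. Their transcripts were followed across 1367 single eYFP-positive cells, by annotated state, by sort gate and by cell cycle phase. The cells were B cells and plasma cells of lymph nodes of C57BL/6 mice, taken on day 15 of the response and 4 days after tamoxifen was given by gavage. NP-KLH was the immunogen and Sigma Adjuvant System the adjuvant. Every group shares this immunisation, the reporter and the tamoxifen, and the alleles behind the reporter and the number of mice are not given in the sources used here. The annotation of the authors holds 480 plasma cells, 63 memory-like and 29 activated pre-plasma cells, and 17 cells called pre-memory. The other 452 dark zone, 48 light-to-dark zone and 278 light zone cells are joined below as 778 germinal centre B cells. The sort gates hold 393 cells in the plasma gate, 282 in the pre-plasma gate, 325 in the dark zone gate and 367 in the light zone gate, and the phase column holds 845 cells in G1, 261 in S and 261 in G2M. The 20 plates fall in 2 groups, 10 plates labelled C57BL/6M with 741 cells and 10 labelled C57BL/6F with 626 cells.

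PRC2 places methyl groups on lysine 27 of histone H3 through its catalytic subunit Ezh2. Eed binds that mark and holds the complex together, and Suz12 is the scaffold. In germinal centre B cells Ezh2 is known for holding back plasma cell genes and inhibitors of the cell cycle while the cells divide. Dnmt1 copies DNA methylation onto the new strand after replication, Uhrf1 recruits it to hemimethylated DNA, and Dnmt3a sets methylation at new sites. Kdm1a, also called LSD1, removes methyl groups from histone H3 lysine 4 and is known as a partner of the plasma cell regulator Blimp-1. Kmt2d adds methyl groups to the same lysine at enhancers and is often mutated in germinal centre lymphomas. Hdac1 is a catalytic subunit of several corepressor complexes, and Hdac7 is a class IIa deacetylase bound by Mef2 factors.

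Promoter windows are shown because genes of S phase often carry binding sequences of E2F factors. The windows of 250 bases upstream of the annotated starts come from RefSeq on GRCm38.p6, and 9 of the 10 members matched, with 17 windows among them. Hdac1 is named only. The strings TTTCCCGC, TTTGGCGC, TTTCGCGC and TTTGCCGC were searched on both strands, with any overlap between them counted once per window. They occurred in 3 of the members' 17 windows and in 611 of 32851 windows of all genes, which is 1.86%. The stretches of 30 bases that hold them follow, 5′ to 3′ on the strand of the gene, with the matching letters in capitals.
Suz12: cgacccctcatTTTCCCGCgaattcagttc
Dnmt1: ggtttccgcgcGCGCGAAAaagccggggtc
Uhrf1: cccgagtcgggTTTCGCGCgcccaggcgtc
The Suz12 stretch lies at chr11:79992876-79992905 on the plus strand, with its first matching base 219 bases before the start. The Dnmt1 stretch lies at chr9:20952824-20952853 on the minus strand, also with its first matching base 219 bases before the start, and holds TTTCGCGC on the opposite strand. It overlaps the first exon of another annotated Dnmt1 transcript. The Uhrf1 stretch lies at chr17:56304117-56304146 on the plus strand, with its first matching base 185 bases before the start, in an intron of longer annotated Uhrf1 transcripts. A match describes letters, not a bound site, and the windows of the other matched members hold none of these letters. Those without a match include Eed, called higher in S phase (below), and Ezh2. Suz12, with a match, missed the threshold there. A tie between these letters and the phase was not tested.

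The deposited values are whole-number counts per gene and cell. The median cell held 60536 counts over 1425 genes, and the members together took 0.06946% of all counts. Plate 6 of C57BL/6F held 10 cells and 5979 counts, and the other 19 plates held 3208858 to 11908095 counts. Median depth was 229914 counts and 3691 genes in activated pre-plasma cells, 70190 counts and 1510 genes in plasma cells, 54434.5 counts and 1390.5 genes in germinal centre B cells, and 16638 counts and 376 genes in memory-like cells. The labelled classes carried their own markers: all 8 plasma cell markers were higher in plasma than in germinal centre B pools, and all 7 germinal centre markers were lower. In dark zone cells, which should lack plasma cell transcripts, Fkbp11 was counted in 0.664% of cells and Sdc1 in 1.55%. In light zone cells they were counted in 2.16% and 0.719%. In plasma cells Pax5 was counted in 0.833% and Bcl6 in 0.417%. How much of these shares is background was not tested. Markers of 3 other sources were also present: the summed level of 6 myeloid genes was 1029 CPM (counts per 1e6) in plasma cells and 280 to 780 CPM in the other states, that of 7 T cell genes was 166 CPM in plasma cells and 78.3 to 478 CPM in the others, and that of 7 red cell and stroma genes was 36.9 CPM in plasma cells and 12.7 to 94.1 CPM in the others. Their part in the members' values was not tested.

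The members were counted in 3.29% to 34.9% of the 1367 cells. Hdac1 was counted in 477 cells, Eed in 449, Dnmt1 in 387, Uhrf1 in 275, Kmt2d in 237, Ezh2 in 155, Hdac7 in 136, Suz12 in 133, Kdm1a in 48 and Dnmt3a in 45. Counts of the rare members gathered in few cells, so that 588 Dnmt3a counts of plasma cells came from 23 cells and 369 Kdm1a counts from 17 cells. The light-to-dark zone and activated pre-plasma cells held the most members per cell, with a mean of 4.44 and 4.59 members, and memory-like cells held 0.429. These are also the deepest and the shallowest states.

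Plasma cells held less Ezh2, Eed, Dnmt1, Uhrf1 and Hdac1 than germinal centre B cells. Counts were summed per plate and class into pools, 19 plates held at least 5 cells of both, and each plate served as its own control. Of the 10 members 5 passed the test as lower in plasma and none as higher. Over all 7649 genes tested, 1211 were called lower (15.8%) and 1156 higher. The median log2 fold change was -1.68 over the 10 members and -0.25 over all genes tested. In such pools fewer cells with a transcript and less of it per cell cannot be told apart. The annotation rests on the same transcripts, so these values describe the annotated states, and p-values measure the spread between plates, whose tie to single mice is not given.

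Among the PRC2 genes, Eed (chr7:89954654-89980983, minus strand) showed the clearest separation. It ranged from 0 to 139 CPM in plasma pools, with a median of 75.1 CPM, against 197 to 663 CPM in germinal centre B pools, with a median of 362 CPM. No plasma pool reached the lowest germinal centre pool, and Eed was lower in 19 of 19 plates, with a log2 fold change of -2.52 ± 0.36 (SE) and an edgeR adjusted p of 3.69e-06. Ezh2 (chr6:47530139-47595341, minus strand) had a lowest, median and highest value of 0, 14.4 and 56.4 CPM in plasma pools, against 2.91, 47.0 and 109 CPM in germinal centre B pools. The groups overlapped, 3 plasma pools held no Ezh2 count, and 16 of 19 plates were lower in plasma (log2 fold change -2.48 ± 0.72, adjusted p = 0.00913). The fitted fold change follows the model with the plate as block and is larger than the ratio of the means, and without the block it was -1.51 (adjusted p = 0.033). Suz12 (chr11:79993106-80034123, plus strand) averaged 20.8 ± 22.9 CPM in plasma pools and 29.9 ± 20.8 CPM in germinal centre B pools (SD, n = 19 each). Its log2 fold change of -1.31 had a 95% interval from -2.87 to 0.25 (adjusted p = 0.232), so a difference was not detectable at this depth by edgeR, while DESeq2 called it lower (-1.40, adjusted p = 0.0225), alone among its alternatives.

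Both maintenance factors of DNA methylation were lower in plasma pools of every plate. Dnmt1 (chr9:20907209-20959888, minus strand) had a lowest, median and highest value of 0, 60.5 and 172 CPM in plasma pools, against 34.0, 216 and 406 CPM in germinal centre B pools. The ranges overlapped, but within each of the 19 plates the plasma pool was the lower one (log2 fold change -2.05 ± 0.52, adjusted p = 0.00315). Uhrf1 (chr17:56303321-56323486, plus strand) had 0, 38.3 and 108 CPM in plasma pools, against 0.356, 135 and 243 CPM in germinal centre B pools. It too was lower in 19 of 19 plates, with a log2 fold change of -2.05 ± 0.47 and an adjusted p of 0.00121. Dnmt3a (chr12:3806007-3914443, plus strand) averaged 12.3 ± 14.9 CPM in plasma pools and 7.04 ± 10.7 CPM in germinal centre B pools. It was at 0 in 6 plasma and 11 germinal centre B pools, was higher in 8 and lower in 7 plates, and its log2 fold change of 2.35 had an interval from -0.98 to 5.68 (adjusted p = 0.325).

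Of the histone demethylase and methyltransferase, neither passed the test. Kdm1a (chr4:136550540-136602723, minus strand) averaged 8.40 ± 12.8 CPM in plasma pools and 9.93 ± 11.3 CPM in germinal centre B pools, with a log2 fold change of -1.08 and an interval from -3.83 to 1.67 (adjusted p = 0.607). Kmt2d (chr15:98831669-98871204, minus strand) averaged 37.4 ± 32.3 CPM and 43.4 ± 25.1 CPM in plasma and germinal centre B pools, with a log2 fold change of -0.81 and an interval from -1.87 to 0.26 (adjusted p = 0.284).

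The deacetylases differed from each other in their values. Hdac1 (chr4:129516104-129542713, minus strand) had a lowest, median and highest value of 1.10, 26.3 and 61.8 CPM in plasma pools, against 42.7, 77.0 and 161 CPM in germinal centre B pools. It was lower in 19 of 19 plates, with a log2 fold change of -2.06 ± 0.37 and an adjusted p of 7.57e-05. Hdac7 (chr15:97792664-97844502, minus strand) averaged 35.8 ± 31.2 CPM in plasma pools and 34.5 ± 26.2 CPM in germinal centre B pools. Its log2 fold change was 0.11, with an interval from -1.33 to 1.54 (adjusted p = 0.931), which leaves room for a difference of over 1 on the log2 scale in either direction. The difference between the genes was not tested. Exons of Ezh2, Eed, Suz12, Dnmt3a and Hdac7 overlap those of a gene on the other strand by 174, 261, 178, 133 and 29 bases, and the strand used in counting is not given, so reads in those stretches cannot be told apart.

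Dividing cells were fewer among plasma cells, and this moved with the result. The share of cells in G1 was 78.8% of plasma cells and 50.6% of germinal centre B cells, and 9 of 15 S phase markers and 7 of 15 G2M markers were lower in plasma pools, with 1 S phase marker higher. The comparison was therefore repeated within phases. Within S and G2M cells alone, Ezh2, Eed, Dnmt1, Uhrf1 and Hdac1 were each called lower in plasma, beside 802 of the 6287 genes tested. Their log2 fold changes were -2.56, -2.47, -1.59, -1.66 and -1.94, with adjusted p of 0.0224, 0.00199, 0.00221, 0.0140 and 0.0104. The median over all genes tested was -0.38. Within G1 cells, 5 members had enough counts to be tested, and 3 of them were called lower, beside 11.9% of the 5538 genes tested. Eed averaged 48.1 ± 45.2 CPM in plasma pools and 252 ± 125 CPM in germinal centre B pools of G1 cells, with a log2 fold change of -3.28 ± 0.73 (adjusted p = 9.70e-04). Dnmt1 averaged 19.6 ± 38.5 CPM in plasma pools, 7 of them at 0, and 84.1 ± 62.0 CPM in germinal centre B pools, with a log2 fold change of -4.42 ± 1.28 (adjusted p = 0.0100). Hdac1 averaged 25.8 ± 22.4 CPM and 85.2 ± 55.8 CPM in the plasma and germinal centre B pools (log2 fold change -2.13 ± 0.70, adjusted p = 0.0227). The Hdac1 call within G1 was lost with no filter on low counts (adjusted p = 0.0659), on the C57BL/6F plates (0.387) and on the C57BL/6M plates (0.0570), and the Dnmt1 call on the C57BL/6F plates (-2.71, 0.406). Kmt2d and Hdac7 had log2 fold changes of -0.13 and -0.09 within G1, with intervals from -1.85 to 1.59 and from -1.86 to 1.67. The other 5 members did not pass the filter on low counts within G1. Among them, Ezh2 and Uhrf1 were counted in 5 and 3 of 378 plasma cells in G1, against 23 and 45 of 394 germinal centre B cells, and without the filter both were called lower (-5.23, adjusted p = 0.00189, and -7.62, adjusted p = 1.17e-06).

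Fewer plates gave fewer calls. On the C57BL/6M plates alone Ezh2 no longer passed (log2 fold change -2.25, adjusted p = 0.237), and on the C57BL/6F plates alone Dnmt1 (-1.55, 0.150), Uhrf1 (-1.65, 0.106) and Hdac1 (-1.70, 0.0663) no longer passed. Eed passed on both sets, with -2.70 on the C57BL/6M plates (adjusted p = 2.73e-05) and -2.38 on the C57BL/6F plates (0.0230).

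The sort gates come from flow cytometry, so they test a like contrast on classes that the transcripts did not define. Most cells of the plasma gate were also annotated plasma, so this contrast shares cells and plates with that of the annotation. The values are set side by side and not as separate support. The plasma gate was compared with the dark zone and light zone gates, joined as the germinal centre gates, on 19 plates. Ezh2, Eed, Dnmt1, Uhrf1 and Hdac1 were again called lower, 5 of the 9 members tested, beside 21.3% of 6865 genes. Eed averaged 68.2 ± 54.8 CPM in plasma gate pools and 380 ± 151 CPM in germinal centre gate pools, and the highest plasma gate pool, at 175 CPM, was below the lowest germinal centre pool, at 216 CPM (log2 fold change -3.06 ± 0.58, adjusted p = 1.52e-04). Dnmt1 averaged 35.9 ± 34.7 CPM in plasma gate pools and 204 ± 81.8 CPM in germinal centre gate pools (-3.26 ± 0.70, adjusted p = 6.48e-04). Uhrf1 averaged 24.5 ± 27.4 CPM and 132 ± 63.0 CPM in those pools (-3.55 ± 0.74, adjusted p = 4.76e-04), and each was lower in 19 of 19 plates.

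Hdac1 averaged 19.4 ± 15.8 CPM in plasma gate pools and 87.7 ± 30.6 CPM in germinal centre gate pools, lower in 18 of 19 plates (log2 fold change -2.52 ± 0.47, adjusted p = 1.48e-04). Ezh2 averaged 13.02 ± 18.9 CPM in plasma gate pools, 8 of them at 0, and 45.1 ± 25.9 CPM in germinal centre gate pools (-3.83 ± 1.03, adjusted p = 0.00506). Without the plate as block the Ezh2 value was -1.77 (adjusted p = 0.0844), and on the C57BL/6F plates Ezh2 had an adjusted p of 0.187 and Dnmt1 of 0.0578. Suz12, Dnmt3a, Kmt2d and Hdac7 had log2 fold changes of -1.42, 1.71, -0.79 and -1.25 and adjusted p of 0.304 to 0.395, and Kdm1a had too few counts to be tested. In G1 cells of the gates Eed (-3.69, adjusted p = 0.00109), Dnmt1 (-4.86, 0.00689) and Hdac1 (-2.41, 0.0419) were called lower, beside 726 of the 5206 genes tested. Of plasma gate cells 87.8% were in G1, and of germinal centre gate cells 52.3%.

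Eed and Dnmt1 were lower in the pre-plasma gate than in the germinal centre gates. Of the 282 cells in that gate, the authors annotated 128 as plasma and 63 as dark zone. Against the germinal centre gates, 2 of the 8 members tested were lower in the pre-plasma gate, beside 8.14% of 7150 genes. Eed averaged 173 ± 91.2 CPM in pre-plasma gate pools and 410 ± 158 CPM in germinal centre gate pools, lower in 18 of 19 plates (log2 fold change -1.40 ± 0.21, adjusted p = 1.51e-05). Dnmt1 averaged 147 ± 70.2 CPM in pre-plasma gate pools and 222 ± 89.4 CPM in germinal centre gate pools, lower in 15 of 19 plates (-0.74 ± 0.24, adjusted p = 0.0306). Hdac1 had -0.93 ± 0.35 (adjusted p = 0.0712), and Uhrf1 -0.65 with an interval from -1.29 to -0.02 (adjusted p = 0.204). Suz12 had a log2 fold change of 0.00 with an interval from -0.83 to 0.83. The SE behind this interval is unstable at a fold change near 0, so the interval bounds no difference. It was 0.013 without immunoglobulin genes and 1.29 with DESeq2's size factors. Without the cells annotated plasma, neither call held: Eed had -0.96 (adjusted p = 0.0749) and Dnmt1 -0.60 (0.253). The Dnmt1 call was also lost without the plate block (0.154), with cells thinned to equal counts (0.0503), on the C57BL/6M plates (0.332) and on the C57BL/6F plates (0.191). In G1 cells Eed had -2.63 (0.0555) and Uhrf1 -6.44 (0.0113), and over the 11 alternatives of Uhrf1 the adjusted p ran from 0.0113 to 0.518.

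The plasma gate was lower than the pre-plasma gate in 5 of the 9 members tested, beside 9.69% of 6564 genes. The log2 fold changes were -3.17 ± 1.07 for Ezh2, -1.85 ± 0.61 for Eed, -2.73 ± 0.83 for Dnmt1, -2.98 ± 0.94 for Uhrf1 and -1.61 ± 0.57 for Hdac1, with adjusted p of 0.0397, 0.0357, 0.0213, 0.0279 and 0.0498. Dnmt1, as an example, averaged 36.3 ± 35.7 CPM in plasma gate pools and 141 ± 67.4 CPM in pre-plasma gate pools, and was lower in 17 of 19 plates. All 5 calls were lost on the C57BL/6F plates, and only that of Dnmt1 was kept on the C57BL/6M plates. With no filter on low counts those of Ezh2 (adjusted p = 0.0581) and Hdac1 (0.237) were lost. Without immunoglobulin genes that of Hdac1 was lost (0.0651), and without the plate block those of Ezh2 (0.287) and Eed (0.0937). The share of cells in G1 was 87.8% in the plasma gate and 48.9% in the pre-plasma gate. In G1 cells Eed had -0.48 (adjusted p = 0.9003) and Hdac1 -1.20 (0.486), and 13 of 15 S phase and 13 of 15 G2M markers were lower in the plasma gate. The comparisons of the 3 gates share pools, so their values are set side by side and not as separate support. Gate and annotation crossed within plasma cells: the 351 cells annotated plasma in the plasma gate held 31.0 CPM of Dnmt1, 21.6 CPM of Uhrf1 and 63.3 CPM of Eed, and the 128 in the pre-plasma gate held 89.9, 71.8 and 71.5 CPM. This crossing was not tested.

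**Figure D1:**
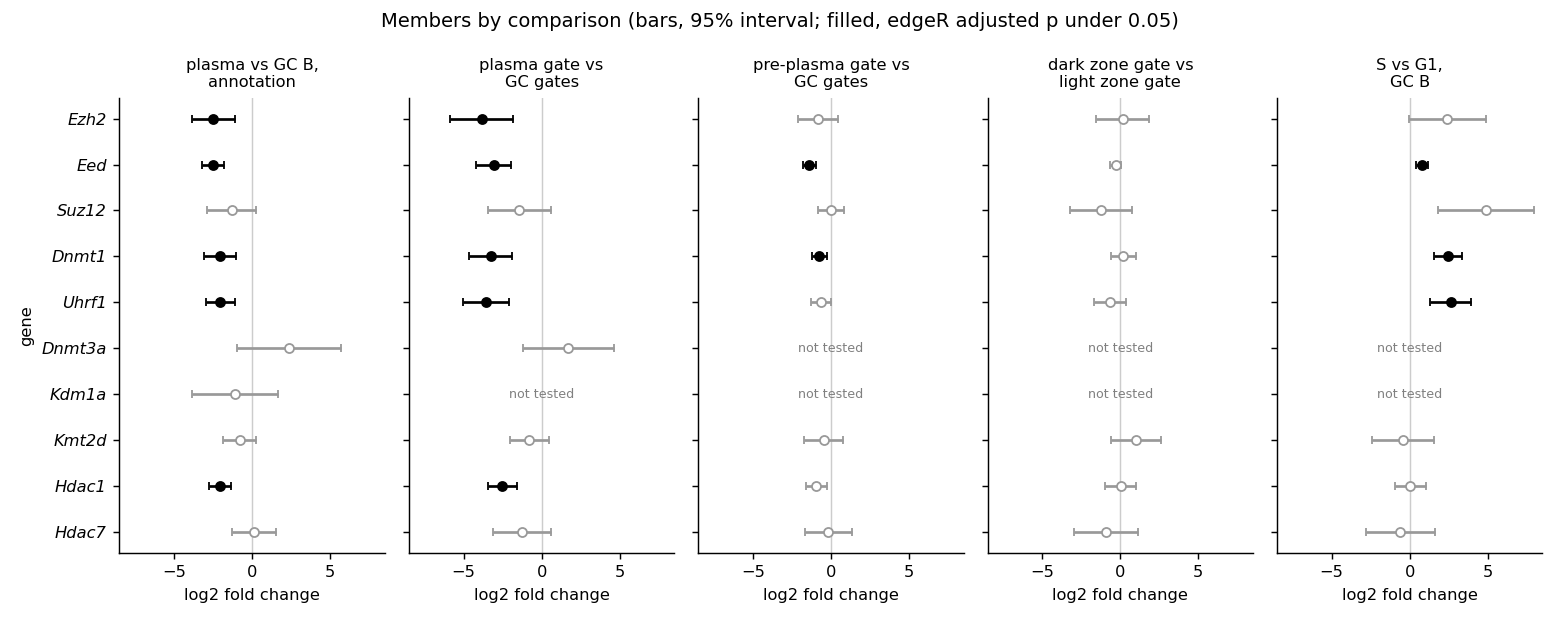
Log2 fold change of each member (rows) in 5 comparisons (panels), with 95% intervals. Filled points passed an edgeR adjusted p of 0.05. Ezh2, Eed, Dnmt1, Uhrf1 and Hdac1 lie below 0 in both plasma comparisons, no member passed between the dark zone and light zone gates, and Eed, Dnmt1 and Uhrf1 lie above 0 in S phase.

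The annotated pre-plasma states were few, and only 9 plates held 5 or more of such cells. In those 9 pools against 20 germinal centre B pools, Hdac1 was the member called lower, 1 of 10, beside 15.9% of 7942 genes and a median of -0.71 over all of them. It averaged 20.1 ± 34.8 CPM in pre-plasma pools and 103 ± 46.0 CPM in germinal centre B pools (log2 fold change -2.16 ± 0.67, adjusted p = 0.0185). Eed averaged 166 ± 168 CPM in pre-plasma pools and 411 ± 181 CPM in germinal centre B pools (-1.23 ± 0.50, adjusted p = 0.0830), and Dnmt1 95.9 ± 86.3 CPM and 238 ± 112 CPM (-1.19 ± 0.49, adjusted p = 0.0908). The Hdac1 call was lost with the plate as block (-3.68, adjusted p = 0.221) and on the C57BL/6F plates (-1.72, 0.286). Other members were called lower under single alternatives: Dnmt1, Suz12 and Kmt2d with at least 10 cells per pool (-2.32, -9.44 and -9.92, adjusted p = 0.0411, 0.00775 and 5.33e-04), Kdm1a and Kmt2d on the C57BL/6F plates (-7.52 and -6.98, 0.0376 and 0.00421), Dnmt1 on the C57BL/6M plates (-1.51, 0.0173) and Eed with thinned cells (-1.24, 0.0301). No plate held 5 activated cells, and 6 plates held 5 memory-like cells, the shallowest state.

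Summed over all cells of a state, activated and memory-like pre-plasma cells stood apart in depth and in several members. Activated cells held 47.8 CPM of Ezh2, 225 CPM of Eed, 155 CPM of Dnmt1 and 134 CPM of Uhrf1, where memory-like cells held 21.6, 162, 83.7 and 27.9 CPM. Hdac7 had 37.05 CPM in activated cells and 84.3 CPM in memory-like cells, where its 133 counts came from 4 cells and 4 of 6 plates were at 0. As a mean over cells Hdac7 had 40.5 CPM in activated and 37.4 CPM in memory-like cells. Kmt2d had 37.2 CPM in activated and 1.90 CPM in memory-like cells. Only 3 of 29 activated cells were in G1, against 54 of 63 memory-like cells. Dnmt3a and Kdm1a had 0 counts in the 63 memory-like cells, which allows up to 4.76% of cells with a count, not of cells expressing the gene. Ezh2, Kdm1a and Hdac7 had 0 counts in the 17 pre-memory cells, which allows up to 17.6% of cells with a count. A total of 3 counts would be 1.90 CPM in memory-like and 3.83 CPM in pre-memory cells. These levels are no upper limits, as cells with a count held a median of 16 Dnmt3a and 15 Kdm1a counts over all states.

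The order of the 7 states by level differed between members. Light-to-dark zone cells were highest in Ezh2 (70.3 CPM), Suz12 (45.0 CPM), Dnmt1 (278 CPM), Uhrf1 (191 CPM), Kdm1a (28.6 CPM) and Hdac1 (128 CPM), and 18.8% of them were in G1. Light zone cells were highest in Eed (450 CPM) and dark zone cells in Kmt2d (54.3 CPM). Pre-memory cells were highest in Dnmt3a (62.6 CPM), where 2 of 17 cells held its counts, and memory-like cells in Hdac7, from 4 cells. As a mean over cells Hdac7 (42.8 CPM) and Ezh2 (78.6 CPM) were highest in dark zone cells, and Suz12 in light zone cells (73.1 CPM). By that mean light-to-dark zone cells held 53.5 CPM of Ezh2 and 32.0 CPM of Suz12. Plasma cells were lowest in Eed (66.3 CPM), Suz12 (17.6 CPM) and Dnmt1 (53.3 CPM), and memory-like cells in Uhrf1, Kmt2d and Hdac1 (9.51 CPM). Ordered by the mean over plates, neighbouring states differed by more than their spread in 4 cases. Hdac1 averaged 22.4 ± 13.6 CPM over plasma pools and 94.8 ± 40.3 CPM over dark zone pools (SD, n = 19 plates each), and 1.03 ± 2.53 CPM over the 6 memory-like pools. Uhrf1 averaged 37.8 ± 27.9 CPM over plasma pools and was at 0 in the 6 memory-like pools. Hdac7 averaged 33.1 ± 28.8 CPM over plasma pools and 0.218 ± 0.308 CPM over only 2 light-to-dark zone pools. States with fewer than 2 plates of 5 cells have no such spread.

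**Figure D2:**
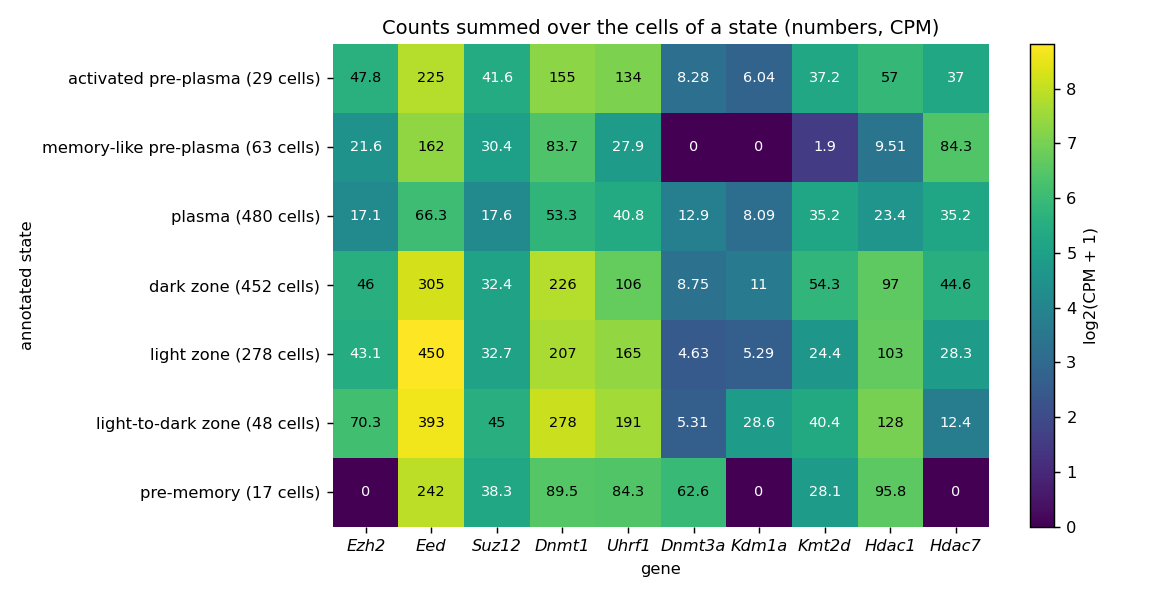
Counts of each member summed over the cells of each annotated state, as CPM (numbers) on a log2(CPM + 1) colour scale. Eed had 66.3 CPM in plasma cells and 450 CPM in light zone cells, Hdac7 had 84.3 CPM in memory-like cells, and values of 0 stand in the memory-like and pre-memory rows.

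No member passed the test between the dark zone, where germinal centre B cells divide and mutate, and the light zone, where they are selected. Between the annotated zones 8 members were tested and none passed, beside 77 of 5447 genes called (1.41%; 46 higher and 31 lower, or 41 and 42 with DESeq2's size factors), within G1 5 were tested and none passed, beside 1.22% of 3374 (27 higher and 14 lower, or 22 and 18 with the size factors), and between the gates 8 were tested and none passed, beside 0.305% of 5904. At an unadjusted p under 0.05 the number of members was 1, 0 and 0. That member was Kmt2d, which averaged 60.8 ± 44.0 CPM in dark zone pools and 31.3 ± 48.3 CPM in light zone pools, higher in 15 of 19 plates (log2 fold change 1.92, interval 0.31 to 3.53, adjusted p = 0.370). DESeq2 called Kmt2d (1.84, adjusted p = 0.0105), alone among its alternatives, and no other member, while between the gates its log2 fold change by edgeR was 0.99 with an interval from -0.60 to 2.58. Eed averaged 347 ± 140 CPM in dark zone pools and 446 ± 181 CPM in light zone pools, with a log2 fold change of -0.38 and an interval from -0.75 to -0.01 (adjusted p = 0.469). Dnmt1 had 0.43 (interval -0.26 to 1.12), Uhrf1 -0.23 (-1.38 to 0.93), Hdac1 0.14 (-0.89 to 1.16) and Ezh2 1.20 (-0.74 to 3.15). For Eed a difference of more than 1 on the log2 scale thus lay outside the interval, and for Ezh2 it did not.

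Dnmt1, Uhrf1 and Eed were higher in S phase than in G1 in germinal centre B cells. How the phase column was made is not given in the sources used here. Uhrf1 is on a commonly used list of S phase genes, and if such a list was used, its value between phases is in part set by it. In the 18 plates with both pools, this was 3 of 8 members tested, beside 3.41% of 5335 genes called higher. Dnmt1 had a lowest, median and highest value of 87.8, 359 and 790 CPM in S pools, against 0, 108 and 197 CPM in G1 pools, and was higher in 18 of 18 plates (log2 fold change 2.44 ± 0.45, adjusted p = 4.88e-04). Uhrf1 had 0, 269 and 517 CPM in S pools, against 0, 57.2 and 226 CPM in G1 pools, higher in 16 of 18 plates (2.62 ± 0.66, adjusted p = 0.0117). Eed averaged 490 ± 178 CPM in S pools and 293 ± 145 CPM in G1 pools, higher in 15 of 18 plates (0.79 ± 0.21, adjusted p = 0.0199).

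Suz12 and Ezh2 missed the threshold in S phase. Suz12 averaged 56.9 ± 51.3 CPM in S pools and 12.9 ± 30.8 CPM in G1 pools, 10 of them at 0 (log2 fold change 4.89 ± 1.58, adjusted p = 0.0704), and Ezh2 averaged 74.4 ± 67.3 CPM and 20.9 ± 26.7 CPM (2.40 ± 1.25, adjusted p = 0.410). DESeq2 called both, with adjusted p of 7.63e-08 and 0.00980, and over the alternatives of Suz12 the adjusted p ran up to 0.539. Hdac1 averaged 93.2 ± 63.5 CPM in S pools and 93.1 ± 60.9 CPM in G1 pools, with an interval of the log2 fold change from -0.93 to 1.03. Kmt2d and Hdac7 had -0.44 and -0.60, with intervals from -2.42 to 1.53 and from -2.81 to 1.61. All 3 calls were lost on the C57BL/6F plates and only that of Dnmt1 was kept on the C57BL/6M plates, Uhrf1 had an adjusted p of 0.0530 without the plate block, and Eed of 0.116 with no filter. In G2M against G1, no member passed by edgeR, beside 6.52% of 5242 genes called and 1 member at an unadjusted p under 0.05. Dnmt1 averaged 222 ± 118 CPM in G2M pools and 101 ± 71.6 CPM in G1 pools (1.48 ± 0.62, adjusted p = 0.232), and DESeq2 called Dnmt1 (0.00905) and Ezh2 (0.0121).

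Plasma cells also divided in part, with 102 of 480 in S or G2M, and 13 plates held at least 5 such cells and 5 in G1. Dnmt1 and Uhrf1 were higher in the cycling cells, 2 of 6 members tested, beside 7.78% of 5696 genes called higher. Dnmt1 had 1.69, 117 and 313 CPM as lowest, median and highest value in cycling plasma pools, against 0, 1.02 and 85.3 CPM in G1 plasma pools, higher in 13 of 13 plates (log2 fold change 5.08 ± 1.05, adjusted p = 0.00179). On the C57BL/6M plates the adjusted p for Dnmt1 was 0.0539. Uhrf1 had 0, 92.7 and 194 CPM in cycling plasma pools, against 0 to 15.9 CPM in G1 plasma pools, 11 of 13 of which held none (7.74 ± 1.09, adjusted p = 5.28e-05). With 35 Uhrf1 counts in all G1 plasma pools, the fitted fold change depends on the small prior count of the fit. Eed averaged 104 ± 85.7 CPM in cycling pools and 43.8 ± 45.7 CPM in G1 pools (1.72, adjusted p = 0.398), and Hdac1 26.1 ± 14.7 CPM and 30.5 ± 24.3 CPM (0.07, adjusted p = 0.977).

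The difference between phases was then compared between plasma and germinal centre B cells, as an interaction over the 13 plates with all 4 pools. Uhrf1 was the member that passed, 1 of 10, beside 0.911% of 8009 genes in that direction, with a log2 difference of 4.03 ± 1.04 (adjusted p = 0.0201). It averaged 80.4 CPM in cycling and 1.75 CPM in G1 plasma pools, against 196 CPM in cycling and 63.1 CPM in G1 germinal centre B pools. The call was lost with cells thinned to equal counts (2.06, adjusted p = 0.131), on the C57BL/6M plates (5.43, 0.218) and on the C57BL/6F plates (3.94, 0.0715), and over 8 alternatives the adjusted p ran from 1.59e-04 to 0.218. Dnmt1 had 2.07 with an interval from 0.22 to 3.91 (adjusted p = 0.307), and Ezh2 3.19 with an interval from 0.49 to 5.89 (0.262).

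The shares of cells with a count overlapped in their intervals between plasma and germinal centre B cells in S phase, for Dnmt1 and Uhrf1, and not in G1. Dnmt1 was counted in 64.6% of plasma and 66.5% of germinal centre B cells in S, with exact Clopper-Pearson intervals at 95% from 49.5% to 77.8% and from 59.4% to 73.1%, and in 4.50% and 19.04% of these cells in G1. Uhrf1 was counted in 54.2% of plasma cells (39.2% to 68.6%) and 55.3% of germinal centre B cells (48.1% to 62.4%) in S, and in 0.794% and 11.4% in G1. The Uhrf1 share of G1 plasma cells is no higher than the 0.833% found for Pax5 in plasma cells. It came from 3 cells with a median of 8 counts, and whether these are background was not tested. Ezh2 was counted in 29.2% of plasma and 24.9% of germinal centre B cells in S, and in 1.32% and 5.84% in G1. Eed was counted in 24 of 48 plasma cells and in 62.9% of germinal centre B cells in S, and in 9.52% and 30.5% of them in G1. With each cell thinned to 10000 counts, Uhrf1 was counted in 46.8% and 47.0% of plasma and germinal centre B cells in S and in 0.532% and 11.1% in G1. The summed level in S was still lower in plasma cells, at 114 CPM of Uhrf1 and 124 CPM of Dnmt1, than in germinal centre B cells, at 251 CPM and 377 CPM. Intervals cover counting error only, and cells of a plate are not replicates of a condition.

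**Figure D3:**
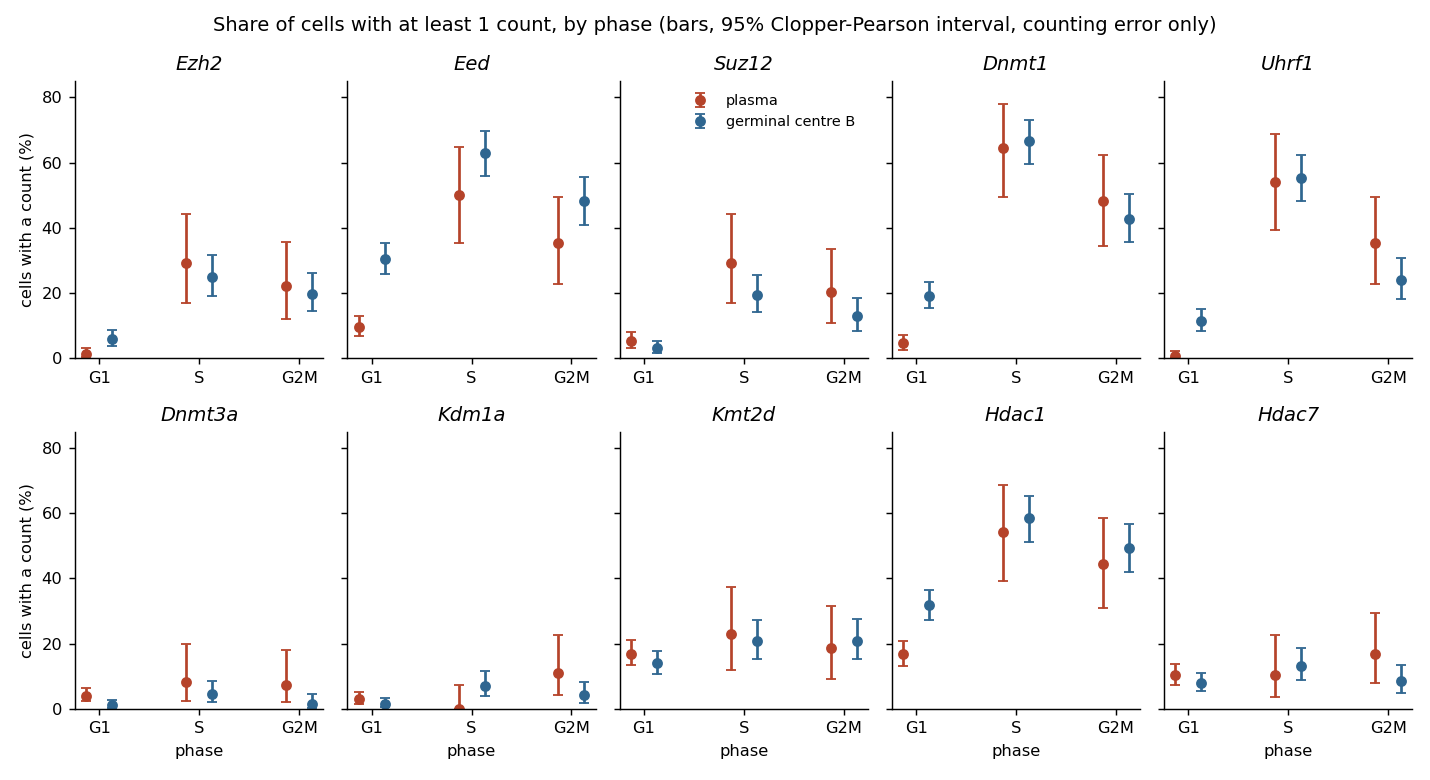
Share of cells with at least 1 count of each member, in percent, for plasma and germinal centre B cells in G1, S and G2M, with exact 95% intervals for counting error. For Dnmt1 and Uhrf1 the classes are at 64.6% and 66.5%, and at 54.2% and 55.3%, in S, while in G1 plasma cells stand at 4.50% and 0.794% and germinal centre B cells at 19.04% and 11.4%.

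No member passed the test between plates labelled C57BL/6M and C57BL/6F. In germinal centre B cells 8 members were tested, beside 41 of 7423 genes called (0.552%), and in plasma cells 9, beside 69 of 7216 (0.956%). No member reached an unadjusted p of 0.05, and by DESeq2 none that was given an adjusted p was called. Dnmt1 averaged 256 ± 92.2 CPM in C57BL/6M pools and 190 ± 113 CPM in C57BL/6F pools of germinal centre B cells (SD, n = 10 each), with a log2 fold change of 0.30 and an interval from -0.26 to 0.86. Hdac1 averaged 114 ± 35.1 CPM and 79.3 ± 44.9 CPM in these pools (0.39, interval -0.17 to 0.96). In plasma cells Uhrf1 had -0.83 with an interval from -2.46 to 0.80. The letters stand in a column on sex in the authors' table, and sex, animal and sample cannot be told apart.

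Partners of the members, from lists of related complexes, were mostly lower in plasma pools where they passed at all. Beside their counts stand 15.8% of all 7649 genes called lower and 1156 called higher. Of 17 other PRC2 and PRC1 genes tested, 5 were lower and 1 higher, with a median log2 fold change of -0.76. Phf19, an accessory subunit of PRC2, averaged 3.80 ± 7.26 CPM in plasma pools and 48.2 ± 28.9 CPM in germinal centre B pools (-6.30 ± 1.06, adjusted p = 4.59e-05). Bmi1, a subunit of PRC1, went the other way, with 18.9 ± 19.2 CPM in plasma pools and 2.86 ± 4.75 CPM in germinal centre B pools (4.71 ± 1.28, adjusted p = 0.00664). Phc2, another PRC1 subunit, had -4.28 ± 1.39 (0.0209), with means of 3.55 and 19.7 CPM and 9 of 19 plasma pools at 0. Of 12 other genes of DNA methylation, 6 were lower and none higher, with a median of -1.37. Mbd4, a glycosylase that repairs mismatches at methylated sites, averaged 41.4 ± 27.7 CPM in plasma pools and 244 ± 71.2 CPM in germinal centre B pools (-2.95 ± 0.37, adjusted p = 6.44e-07). Tet3, which oxidises methylated cytosine, had -5.41 ± 1.21 (adjusted p = 0.00115), with means of 1.66 and 16.3 CPM and 13 of 19 plasma pools at 0. Mbd2, which binds methylated DNA, had -2.87 ± 0.62 (7.11e-04). For Phf19, Phc2 and Tet3 the fitted fold change is larger than the ratio of the means.

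Of 11 genes of the LSD1, CoREST and NuRD complexes, 4 were lower and none higher (median -1.39). Among them were Rcor1, the scaffold that ties LSD1 to its partners, with -4.79 ± 1.53 (adjusted p = 0.0186), and the NuRD subunit Mta3 with -4.78 ± 1.20 (0.00314). Rcor1 averaged 3.75 CPM in plasma and 14.6 CPM in germinal centre B pools, with 12 of 19 plasma pools at 0. Mta3 averaged 7.93 and 35.5 CPM, with 9 plasma pools at 0. Both fitted fold changes are larger than the ratio of the means. Of 13 COMPASS and histone demethylase genes, 3 were lower and none higher (median -0.79). The methyltransferase Kmt2a averaged 26.3 ± 24.4 CPM in plasma pools and 84.97 ± 49.5 CPM in germinal centre B pools (-2.25 ± 0.57, adjusted p = 0.00312). Pagr1a and Dpy30, from the same list, had -0.79 ± 0.24 (0.0131) and -0.46 ± 0.14 (0.0120). Of 17 deacetylases and corepressors, 5 were lower and none higher (median -0.70), with Hdac9 at -3.08 ± 0.89 (0.00913) and the germinal centre factor Mef2b at -2.26 ± 0.32 (3.69e-06). Of 7 acetyltransferases 1 was lower, Hat1, with 115 ± 51.4 CPM in plasma pools and 247 ± 67.6 CPM in germinal centre B pools (-1.23 ± 0.25, adjusted p = 4.27e-04). Beside these medians stands -0.25 over all genes tested, and the counts are read against the 15.8% of them called lower.

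Between the zones, where no member passed, 1 companion did. Mbd2 averaged 298 ± 115 CPM in dark zone pools and 38.7 ± 52.5 CPM in light zone pools (log2 fold change 4.29 ± 0.74, adjusted p = 6.13e-04), and between the gates 273 ± 112 CPM and 116 ± 61.3 CPM (1.27 ± 0.26, adjusted p = 0.0186). In S against G1 germinal centre B cells, Hells, a remodeller needed for DNA methylation, had 3.15 ± 0.46 (adjusted p = 1.89e-05), and Pcna, the replication clamp, 2.46 ± 0.31 (2.34e-06). Both are on the same common list of S phase genes as Uhrf1, so the limit given for Uhrf1 holds for their values between phases too. In cycling against G1 plasma cells Hells had 4.39 ± 0.99 (0.00383) and Pcna 2.68 ± 0.41 (9.95e-05). In the plasma gate Tet2, like Tet3 an oxidase of methylated cytosine, was higher, with 41.8 ± 39.6 CPM against 4.21 ± 6.64 CPM in the germinal centre gates (4.47 ± 1.25, adjusted p = 0.00808).

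The pattern of each member was last set beside those of 5628 other genes over 11 combinations of state and phase with at least 20 cells, as Pearson's r of log2(CPM + 10). These combinations share plates and differ in depth, so r is a description. The 3 closest genes were Lig1, Fignl1 and Ranbp1 for Ezh2 (0.96 for the first), Uchl3, Hspa8 and Slc25a5 for Eed (0.96), and Pole2, Cnot1 and Wdr75 for Suz12 (0.88). They were Exosc8, Vrk1 and Ezh2 for Dnmt1 (0.95), Nbn, Rrp1 and Mcm2 for Uhrf1 (0.96), and Flad1, Tex264 and Hsd17b4 for Dnmt3a (0.82). They were Cuedc2, Stat6 and Atg101 for Hdac1 (0.98), Arid5b, Tpp1 and Supt7l for Hdac7 (0.89), Tonsl, Riok3 and Psd4 for Kmt2d (0.95), and NCBP2-AS2, Utp18 and Chmp6 for Kdm1a (0.88). Among the members, Ezh2 and Dnmt1 had an r of 0.95 with each other, Eed and Dnmt1 0.81, and Ezh2 and Kmt2d -0.07.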

How the data were processed

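The data are counts per gene and cell from FB5P-seq, a plate-based protocol for 5'-end sequencing, with 22 cycles of preamplification per the labels' protocols. The deposited matrix holds whole-number counts, not normalised, made with STAR 2.5.3a and HTSeq 0.9.1 on mm10 per the submitters' processing notes. How the authors filtered cells and whether counting used strand are not given in the sources used here. State, gate and phase were taken from the authors' table of cells, in which the share of spike-in RNA is deposited as a fraction and entered no test. A molecular tag of 5 bases allows 1024 values per gene and cell, and the highest member count was 378. No label ties a plate to a sample title, so plates were placed in C57BL/6M or C57BL/6F by that table, and 0 columns of other samples were left out.

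Counts were summed per plate and class (at least 5 cells), scaled by TMM and tested, after filterByExpr by class, with edgeR 4.0.16 (estimateDisp, glmQLFit, glmQLFTest, R 4.3.3) with the plate as block. The block rests on the plate, which both classes of a pair share. Pre-plasma against germinal centre B under the annotation was fitted with the sample group instead, and C57BL/6M against C57BL/6F with no covariate. P-values were adjusted by Benjamini-Hochberg over all genes tested, with 0.05 as the threshold. SE were taken from the F statistic, which makes them and their intervals unstable where the fold change is near 0. CPM beside a fold change are TMM-scaled means over pools, and levels by state are summed counts without TMM. For a value of 0, the share of 3 cells and the level of 3 counts of the total are given. That level is no upper limit where counts gather in few cells. Shares have exact Clopper-Pearson intervals at 95%, which cover counting error only. The fit of annotated plasma against germinal centre B was also run on data simulated without a plate effect. That run does not check the other comparisons or the SE. The 10 members, every one in every comparison, are named, with up to 3 called genes of each companion list by size of change, of which some are not reported here. Members and lists were chosen with earlier results of these data known. The lists were PRC2 and PRC1, DNA methylation, LSD1 with CoREST and NuRD, COMPASS and demethylases, deacetylases and corepressors, acetyltransferases, and markers of cell types and phases. Alternatives were DESeq2 1.42.0, its size factors, no filter, at least 10 cells per pool, cells thinned to 10000 counts, the plates of each group alone, and the fit without (or with) the plate block. The gates in G1 cells alone, plasma against germinal centre B in S and G2M cells alone, and fits without cells annotated plasma, without plate 6 and without 301 immunoglobulin genes were added after seeing the data.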

Additional observations from a re-analysis of the deposited data

Results flagged for a closer look

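Within each class and group of plates, 40 sets of member values were screened for a plate far from the others by Dixon's criterion, and 9 such values were found. The criterion gives about 1 in 20 sets by chance only for normally distributed values. Several of these sets had a lowest value of 0, so no chance rate is read here. Plate 4 of C57BL/6F held 3 of the 9 values, with 44.4 CPM of Ezh2 in its plasma pool (next highest 21.0 CPM), 83.8 CPM of Suz12 in its plasma pool (next 28.3 CPM) and 109 CPM of Ezh2 in its germinal centre B pool (next 60.2 CPM). Plate 15 of C57BL/6M had 46.8 CPM of Kdm1a (next 24.5 CPM) and 127 CPM of Hdac7 (next 58.5 CPM) in its plasma pool. Plate 16 of C57BL/6M had 47.9 CPM of Dnmt3a in its plasma pool (next 20.2 CPM) and 28.9 CPM of Kdm1a in its germinal centre B pool (next 12.3 CPM). Plate 20 of C57BL/6M had 61.8 CPM of Hdac1 in its plasma pool (next 35.8 CPM), and plate 1 of C57BL/6F had 27.3 CPM of Dnmt3a in its germinal centre B pool (next 12.05 CPM). All 9 lie above the rest of their set.

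By the interaction test the log2 ratio of cycling to G1 cells in Uhrf1 was larger in plasma than in germinal centre B cells. The log2 difference was 4.03 ± 1.04, with an edgeR adjusted p of 0.0201. The ratio in plasma rests on G1 pools with 35 counts, of which 11 of 13 were at 0. Cycling and G1 pools averaged 80.4 and 1.75 CPM in plasma cells, and 196 and 63.1 CPM in germinal centre B cells. The call was lost with cells thinned to equal counts. Uhrf1 was higher in cycling plasma pools in 12 of 13 plates, and the adjusted p of the interaction over its alternatives ran from 1.59e-04 to 0.218.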

How the results depend on the processing

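The 5 calls of plasma against germinal centre B cells kept their direction under every alternative run, and Eed stayed past the threshold in all 10. Calls were lost mainly on the plates of 1 group alone. Fewer pools enter those fits and the group differs too, and the cause was not tested. Depth limits the rare members Dnmt3a and Kdm1a, counted in 45 and 48 cells. Thinning to 10000 counts kept 1271 cells and left out 96, and at least 10 cells per pool could not be fitted for the 2 comparisons of cycling plasma cells. Over all alternatives 870 of the members' values kept direction and side of the threshold, 47 lost a call, 17 gained one and 46 changed sign.

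Numbers of called genes moved with several settings. Plasma against germinal centre B gave 2367 genes, 3629 by DESeq2 (1381 higher, 2248 lower, where edgeR gave 1156 and 1211), 1013 on C57BL/6F plates and 1349 in S and G2M cells. Within G1 the number was 1571, 2475 by DESeq2, 960 on C57BL/6M and 796 on C57BL/6F plates. Dark against light zone gave 77 (46 higher, 31 lower), 569 by DESeq2 (458 and 111), 133 with no filter, 31 and 14 on C57BL/6M and C57BL/6F plates, and 83 with DESeq2's size factors (41 and 42). Within G1 it gave 41 (27 and 14), 253 by DESeq2, 0 with at least 10 cells per pool, 7 and 1 on C57BL/6M and C57BL/6F plates, and 40 with the size factors (22 and 18). Between these gates it gave 18, 135 by DESeq2 (58 higher, 77 lower, where edgeR gave 11 and 7), 50 with no filter, 31 with thinned cells, 5 on C57BL/6M and 0 on C57BL/6F plates. The plasma gate against the germinal centre gates gave 2398, 3730 by DESeq2, 1527 and 953 on C57BL/6M and C57BL/6F plates and 1526 in G1. The pre-plasma gate gave 1089, 1982 by DESeq2, 495 and 529 on C57BL/6M and C57BL/6F plates, 505 in G1 and 359 without cells annotated plasma. The plasma against the pre-plasma gate gave 1189, 2364 by DESeq2 (773 higher, 1591 lower, where edgeR gave 553 and 636), 764 and 302 on C57BL/6M and C57BL/6F plates and 349 in G1, where 266 were higher and 83 lower and the median of all genes was 0.42, against -0.27 over all phases. Annotated pre-plasma cells gave 1433 and 619 on C57BL/6M plates. S against G1 gave 309, 777 by DESeq2, 171 and 78 on C57BL/6M and C57BL/6F plates, and G2M against G1 gave 342, 747, 188 and 119. Cycling plasma cells gave 910, 1720 by DESeq2 and 343 on C57BL/6M plates, and the interaction gave 245, 540 by DESeq2, 379 with no filter, and 53 and 119 on C57BL/6M and C57BL/6F plates. C57BL/6M against C57BL/6F gave 41 in germinal centre B and 69 in plasma cells, and 101 and 109 by DESeq2. The median log2 fold change of all genes was -0.52 with the size factors and -0.71 with TMM in annotated pre-plasma cells, -0.35 and -0.25 in plasma cells, and -0.37 and -0.27 between the plasma and pre-plasma gates. The cause of these moves was not tested.

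The plate block paired pools of 1 plate. Without the block, zone comparisons gave 42 genes (main 77) and 18 within G1 (main 41), and with the plate as block the annotated pre-plasma comparison gave 177 (main 1433). Without it Ezh2 in the plasma gate fell short (-1.77), as did Uhrf1 in S phase (1.85), Dnmt1 in the pre-plasma gate (-0.61), and Ezh2 and Eed between the plasma and pre-plasma gates (-1.41 and -1.23). It turned the sign of uncalled values for Hdac7 in plasma within G1 (0.18), Hdac1 between zones (-0.20, within G1 -0.15, gates -0.14), Dnmt1 between zones within G1 (-0.20), Suz12 and Hdac7 in the pre-plasma gate (0.56 and 0.029), Hdac1 in S and in G2M (-0.10 and -0.083), and with the block Hdac7 in annotated pre-plasma cells (-0.053). The block changed no other call of a member except that of Hdac1 in annotated pre-plasma cells.

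The other changes of sign, all in log2 fold changes short of the threshold, were as follows. On C57BL/6F plates they were Hdac7 in plasma (-0.61, within G1 0.25), Kmt2d in plasma within G1 (0.52), Suz12 and Uhrf1 between zones (-0.21 and 1.20), Ezh2 between zone gates (-0.43), Suz12 in the pre-plasma gate (0.68) and in annotated pre-plasma cells (0.021), Kmt2d in S (0.57) and G2M (0.25), Uhrf1 in G2M (-0.13), Hdac1 in cycling plasma cells (-0.38) and Ezh2 in the interaction (-0.33). On C57BL/6M plates they were Dnmt1 between zones (-0.16), Hdac7 in the pre-plasma gate (0.32), Ezh2 and Kdm1a in annotated pre-plasma cells (0.42 and 0.55), Hdac1 in S (-0.15) and G2M (-0.13), and Kmt2d, Hdac1 and Hdac7 in the interaction (0.44, 0.012 and 0.42). With thinned cells they were Hdac1 between zone gates (-0.070), Suz12 in annotated pre-plasma cells (0.24) and Kmt2d between groups in germinal centre B cells (0.38). DESeq2 and its size factors turned Suz12 in the pre-plasma gate (0.0069 and 0.022) and Ezh2 between groups (-0.015 and -0.0016), and the size factors Hdac7 in plasma (-0.0053). At least 10 cells per pool turned Ezh2 in annotated pre-plasma cells (0.88) and Kmt2d in G2M (0.18). Of those added after seeing the data, S and G2M cells turned Hdac7 in plasma (-1.24), G1 cells Kmt2d and Hdac7 between the plasma and pre-plasma gates (0.70 and 0.062), and leaving out immunoglobulin genes Suz12 in the pre-plasma gate (6.18e-05).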
